A study of Mus musculus with 34 samples.

Results

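The comparison was between mouse mammary adenocarcinoma cells that carried a substituted glucocorticoid receptor, D647V, and cells that carried the wild-type (WT) receptor, neither given hormone. All libraries of the second library set labelled D647V or WT and treated with the ethanol (EtOH) vehicle were taken, which gave 3 D647V and 2 WT libraries, 5 of the 34 in the series. All cells derived from the 3617 line, lacked their own receptor gene and stably expressed GFP-tagged mouse receptor. They were held in 10% serum, stripped with charcoal and dextran for treatment, with 5 µg/ml tetracycline, and received vehicle for 2 h. Further libraries of the same set were given dexamethasone (Dex), a synthetic glucocorticoid, at 100 nM, or carried a form named D647V-Tetra in 3 libraries per treatment. A separate set 1 held a WT line under the same label and lines with Y551A and with Y551A-Dim, again in 3 libraries per treatment. The labels name 1 line per receptor form in each set, so the receptor form and any other difference between lines cannot be told apart.

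The glucocorticoid receptor (GR), encoded by Nr3c1, is a nuclear receptor held in the cytoplasm by heat shock protein chaperones until a glucocorticoid binds its ligand-binding domain. The bound receptor moves to the nucleus, induces genes such as Tsc22d3, Fkbp5 and Sgk1, and restrains inflammatory genes. D647V lies in the ligand-binding domain. Without hormone the receptor is largely inactive, so libraries with vehicle give the state from which each line starts.

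Total RNA was sequenced and reads were counted per gene. The 2 WT libraries held 68965654 and 70499796 counted reads and the 3 D647V libraries held between 70711346 and 79776573. Levels are given as CPM, the reads of a gene scaled to the size of its library with trimmed means, differences as log2 D647V minus WT with their standard error, and a gene was called when edgeR's quasi-likelihood test gave a Benjamini-Hochberg adjusted p under 0.05 over 17535 tested genes. Nothing in the labels ties replicates to separate cultures, so the p-values measure the spread between these samples, which may be technical. Small structural RNAs took 2.54% and 2.62% of reads in WT and 1.83% to 2.21% in D647V, and the part of this difference in the results was not tested.

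Of 17535 genes, 1290 were called (7.36%), 803 higher in D647V (4.58%) and 487 lower (2.78%). Differences were mostly small. The median log2 difference was 0.27 among genes called higher, -0.41 among those called lower and 0.0002 over all genes. Of the called genes 242 differed at least 1.5-fold (1.38% of those tested), 83 higher and 159 lower. The groups did not overlap for 6417 genes (36.6%), among them 1288 of the 1290 called. The number called rested on which libraries were present: without WT replicate 1 it was 364, without D647V replicate 2 it was 646, without D647V replicate 3 it was 721, and without the other libraries it was 881 and 1057. A correction for base composition and gene length called 970 genes higher and 933 lower, and a fit with no filter on low counts called 746 and 700, so the excess of higher genes was smaller under these settings.

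The targeted gene was read first. Nr3c1 (chr18:39410545-39519421 in mm10, minus strand) stood at 336.8 and 341.2 CPM in WT and at 285.4, 288.8 and 287.2 CPM in D647V. Every D647V library was below both WT libraries, by -0.24 ± 0.0451 on the log2 scale (edgeR adjusted p = 0.00354). A lack of overlap between the groups held for 36.6% of all genes. Reads of the introduced receptor and of any remaining endogenous transcript are counted together and cannot be told apart. With Dex the difference was -0.20 (adjusted p = 0.0101), and the WT line of set 1, normalized separately, stood at 277.3, 286.7 and 276.1 CPM. Among chaperones and cofactors of the receptor, 3 of 30 genes were called, all higher (10%, against 4.58% of all genes). They were the chaperones Hsp90aa1 (0.24) and Hsp90ab1 (0.19) and the co-chaperone Ahsa1 (0.21). None of these 3 was called when WT replicate 1, WT replicate 2, D647V replicate 2 or D647V replicate 3 was left out. Hras, a growth-promoting GTPase, did not pass the test (0.15, adjusted p = 0.211).

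The 15 genes with the greatest rise and the 15 with the greatest fall in log2 level, among called genes with an average of at least 1 log2 CPM, lead the description. Only genes whose CPM did not overlap between the groups were taken, and predicted, clone-named and pseudogene names were passed over. Lack of overlap in these genes is thus set by the rule. On the lower side Tpsab1, which encodes a mast cell tryptase (chr17:25343245-25345562 in mm10, minus strand), stood at 22.8 and 23.6 CPM in WT and at 3.31, 3.85 and 3.76 CPM in D647V. The groups were far apart, at 6.36-fold, with a log2 difference of -2.67 ± 0.115 (edgeR adjusted p = 6.89e-10). Sfrp2, a secreted modulator of Wnt signalling (chr3:83766321-83774316, plus strand), stood at 91.1 and 95.9 CPM in WT and at 35.2, 38.7 and 37.2 CPM in D647V. It fell 2.53-fold, by -1.34 ± 0.0894 in log2 (adjusted p = 3.8e-07). Cdh5, the endothelial cadherin, fell from 5.90 and 6.40 CPM to 2.54, 1.98 and 2.19 CPM (-1.46). Krt14, a keratin of basal epithelium, fell from 7.48 and 7.02 CPM to 2.96, 3.37 and 3.203 CPM (-1.19). By the rule, all of these were lower in every D647V library than in either WT library.

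The lower group went on with genes of varied function. Igfbp7, a secreted binding protein of insulin-like growth factors, stood at 27.3 and 23.7 CPM in WT and at 11.7, 12.9 and 12.8 CPM in D647V (-1.03 ± 0.0829). Cbr2, a carbonyl reductase, stood at 64.6 and 48.3 CPM in WT and at 26.5, 27.2 and 27.3 CPM in D647V (-1.06 ± 0.0913). The 2 WT libraries differed from each other for Cbr2, though by the rule both lay above all 3 of D647V. Ldb3 and Mustn1, known from muscle, differed by -1.33 and -1.27, and Acsbg1, an acyl-CoA synthetase, by -1.10. Trabd2b, an inhibitor of Wnt ligands, differed by -1.10, Tmem119 by -1.06 and the scavenger receptor family member Ssc5d by -1.04. Rny3, a small Y RNA, was the least stable of the 15: WT stood at 70.5 and 37.8 CPM and D647V at 18, 27.5 and 23.3 CPM (-1.24, adjusted p = 0.0201). Its call was lost without WT replicate 1, D647V replicate 1 or D647V replicate 3, with an adjusted p of up to 0.37.

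On the higher side the log2 differences were smaller. Ssu2 (chr6:112359324-112388023 in mm10, minus strand) had the greatest rise, from 1.15 and 1.01 CPM in WT to 3.13, 2.71 and 3.50 CPM in D647V (1.53 ± 0.205, edgeR adjusted p = 0.000229). Clec1a, a C-type lectin receptor (chr6:129424772-129452000, minus strand), stood at 3.59 and 4.06 CPM in WT and at 8.58, 9.51 and 10.6 CPM in D647V (1.32 ± 0.116, adjusted p = 4.43e-06). Cxcl12, a chemokine, stood at 7.17 and 7.70 CPM in WT and at 14.6, 13.3 and 13.03 CPM in D647V (0.87 ± 0.0834, adjusted p = 8.39e-06). By the rule, neither of the last 2 genes had a D647V library in the WT range. Il33, a cytokine released from damaged cells, rose from 6.86 and 5.41 CPM to 9.98, 11.04 and 11.6 CPM (0.83 ± 0.113, adjusted p = 0.000264). Hapln1, a link protein of hyaluronan matrix, rose from 0.913 and 1.02 CPM to 2.197, 2.67 and 2.29 CPM (1.30). Genes best known from blood cells were among the rest: Itgb2, the leukocyte integrin chain (1.00), Blnk, an adaptor of B cells (0.92), and Siglecg, a sialic acid receptor (0.82). Others were S100a7a (1.24), Dynap (1.14), Mstn, the muscle growth inhibitor myostatin (1.00), the protocadherin Pcdh9 (0.88), Fyb2 (0.86) and Rftn1 (0.84).

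**Figure D1:**
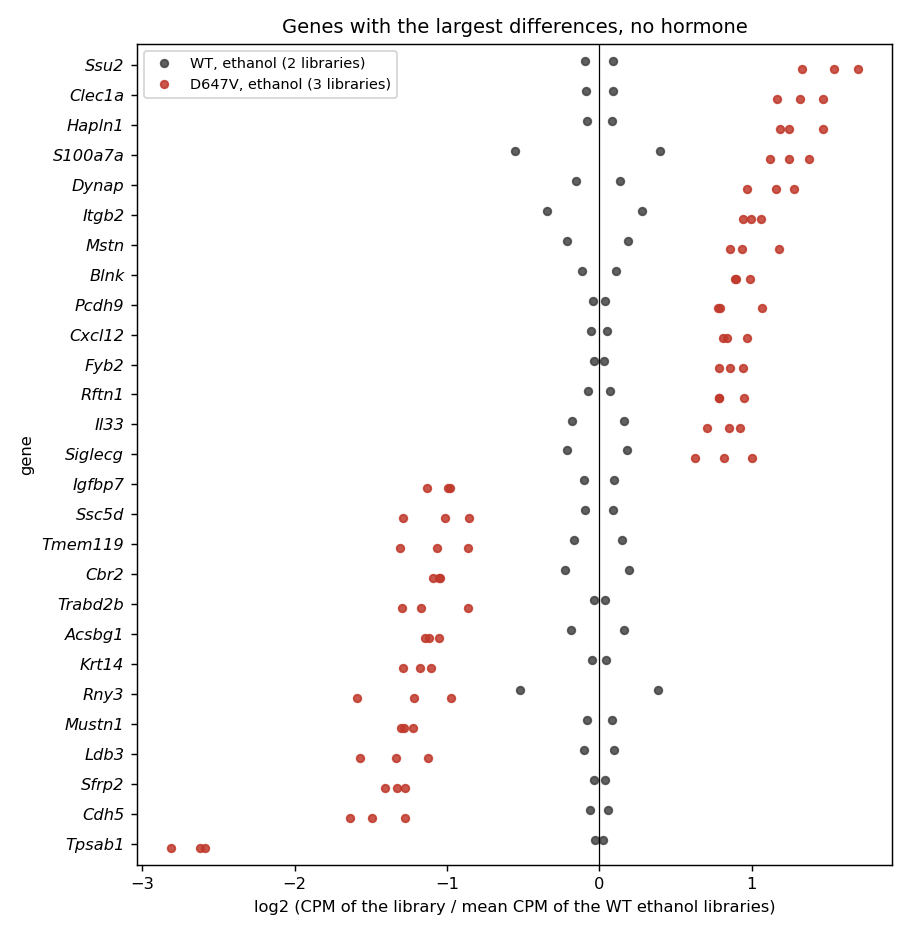
Log2 of the CPM in each library over the mean CPM of the WT EtOH libraries (x axis), for 14 of the 15 genes called higher and 13 of the 15 called lower with the greatest log2 difference (y axis), with 1 point per EtOH library of WT (2, dark) and D647V (3, red). The rule that picked the genes required that the WT and D647V points do not overlap. Of the 27 genes drawn, Tpsab1 lies farthest from WT, at a fitted difference of -2.67.

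Of these 30 genes, 12 of the 15 higher and 13 of the 15 lower kept their call under all 13 alternatives run. The exceptions were Siglecg, S100a7a and Mstn on the higher side, and Tmem119 and Rny3 on the lower side. Siglecg, S100a7a and Tmem119 lost their call without WT replicate 1 and Mstn without WT replicate 2. Siglecg, S100a7a and Mstn also lost it in a fit on the 5 libraries alone.

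The WT lines of the 2 sets, which carry the same label but were normalized separately, did not stand at the same levels. Tpsab1 stood at 2.13, 1.69 and 2.24 CPM in the WT of set 1, below D647V, whereas the WT of set 2 stood at 22.8 and 23.6 CPM. Igfbp7 stood at 9.30, 9.43 and 10.1 CPM in the WT of set 1, Cxcl12 at 16.6, 16.8 and 15.7 CPM and Il33 at 14.3, 13.9 and 13.7 CPM, on the far side of D647V in each case. Sfrp2 at 78.6, 74.2 and 74.6 CPM and Cbr2 at 51.5, 49.9 and 52.5 CPM lay instead on the WT side of D647V. Set and kit batch cannot be told apart in these levels, and no test was made between them.

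Genes induced by the receptor were then examined for a difference at baseline. Among 37 tested genes of a textbook list of induced genes, 4 were called higher (10.8%) and 6 lower (16.2%). Over all genes the shares were 4.58% and 2.78%. The median log2 difference of the list was -0.10 against 0.0002 over all genes. Tsc22d3, which encodes the anti-inflammatory protein GILZ, stood at 26.5 and 23.9 CPM in WT and at 20.2, 21.7 and 20.5 CPM in D647V (-0.28 ± 0.0609, edgeR adjusted p = 0.0098). Every D647V library was lower, where 36.6% of all genes had groups that did not overlap. The call was lost without WT replicate 1 and in a fit on the 5 libraries alone. Plin4, a lipid droplet protein, differed by -0.59, Zfp36, which destabilises inflammatory transcripts, by -0.63, Anxa1, the anti-inflammatory annexin, by -0.36, the arrestin family member Arrdc3 by -0.34 and Cdkn1a, the cell cycle inhibitor p21, by -0.36. Cdkn1a stood at 64.3 and 51.1 CPM in WT and at 44.1, 47.5 and 42.9 CPM in D647V, and its call was lost without WT replicate 1, D647V replicate 1 or D647V replicate 3. With 1 library left out the list had 2 to 3 higher and 3 to 8 lower, with 3 lower without WT replicate 1 and 2 higher without WT replicate 2 or D647V replicate 2. It had 10 lower with base composition and length offsets or DESeq2 and 11 with no low-count filter.

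Glul, glutamine synthetase, went the other way, from 87.5 and 88.4 CPM in WT to 106.7, 109.6 and 109.7 CPM in D647V (0.31 ± 0.0458, adjusted p = 0.000525). Adm, the vasodilator peptide adrenomedullin, rose from 15.6 and 15.4 CPM to 21.4, 24.4 and 24.5 CPM (0.60 ± 0.0696, adjusted p = 5.62e-05). Rgs2, a regulator of G protein signalling, was higher by 0.77, and Nfkbia, the inhibitor of NF-kB, by 0.28. Several of the best known targets did not pass the test. The values were -0.20 for the clock gene Per1 (adjusted p = 0.548), 0.15 for the chaperone Fkbp5 (adjusted p = 0.161), -0.15 for the kinase Sgk1 (adjusted p = 0.0692), -0.29 for the phosphatase Dusp1 (adjusted p = 0.111), 0.02 for the matrix protein Ccn2 (adjusted p = 0.903) and 0.15 for metallothionein Mt1 (adjusted p = 0.226). Lcn2, lipocalin, was near its detection limit in all 5 libraries, at 0.0278 to 0.236 CPM (-1.70, adjusted p = 0.0685).

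A list of responsive genes was also taken from the WT line of set 1, whose libraries are independent of those compared here. Dex raised 136 of 16140 genes at least 1.5-fold there (0.843%) and lowered 17 (0.105%). Of the 134 raised genes tested at baseline, 6 were called higher in D647V (4.48%) and 20 lower (14.9%), against 4.58% and 2.78% of all genes. Without WT replicate 1, 3 were higher and 8 lower, and the number lower was between 14 and 19 without any other library. The median difference was -0.04, and it was 0.03 without WT replicate 2. Aldh1a1, a retinaldehyde dehydrogenase, stood at 125.4 and 117.2 CPM in WT and at 70.3, 75.6 and 72.9 CPM in D647V (-0.73 ± 0.0561, edgeR adjusted p = 1.5e-06). It was lower in all 3 D647V libraries, and the groups did not overlap for 36.6% of all genes. Of the 17 lowered genes, 2 (Ahr and Gm23935) were called higher and 3 (Usp17la, Dusp4 and Ankrd1) lower at baseline, which is 11.8% and 17.6%. Gm23935 had a mean of 0.0512 CPM in WT, near the floor, and of 17.7 CPM in D647V (8.41 ± 2.37). Its log2 change with Dex in the WT of set 1 was -11.7, so it bears little weight as a gene lowered by Dex.

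Most cell cycle genes of the list were higher in D647V. Of 40 genes tested, 28 were called higher (70%, against 4.58% of all genes) and 0 lower by edgeR. At an unadjusted p under 0.05 the counts were 33 and 0. DESeq2 called 31 and 0, and 39 had a difference above 0. The median was 0.25 against 0.0002 over all genes. Their summed level was 8486 and 8763 CPM in WT and 9789, 10310 and 10010 CPM in D647V, with no overlap. Cdc6, which loads the replicative helicase, stood at 55.5 and 61.4 CPM in WT and at 78.7, 79.8 and 80.6 CPM in D647V (0.45 ± 0.0514, adjusted p = 5.4e-05). Mcm6, a subunit of that helicase, stood at 397.0 and 418.7 CPM in WT and at 519.2, 537.4 and 536.8 CPM in D647V (0.38 ± 0.0523, adjusted p = 0.000275). Both genes were higher in every D647V library, and the groups did not overlap for 36.6% of all genes. The helicase subunits Mcm2, Mcm3, Mcm4, Mcm5 and Mcm7, the mitotic kinases Aurka (0.46) and Plk1 (0.31), the cyclins Ccna2 and Ccnb1, and the proliferation marker Mki67 (0.30) were also called. The cyclin D genes, Cdk4 and Cdk6 were not. The count was 6 without WT replicate 1 and 13 without D647V replicate 2, and 19 to 28 without any other library. The list's median stayed between 0.20 and 0.30 over these 5 fits, and 27 to 32 genes were called higher under the other scalings, filters and DESeq2. A replicate block called 25 of the list higher and a fit on the 5 libraries alone 19. Of the list, 0 were called higher by at least 1.5-fold. Myc, a driver of proliferation, was higher by 0.33 (adjusted p = 0.016), a call lost without WT replicate 1, WT replicate 2 or D647V replicate 3.

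**Figure D2:**
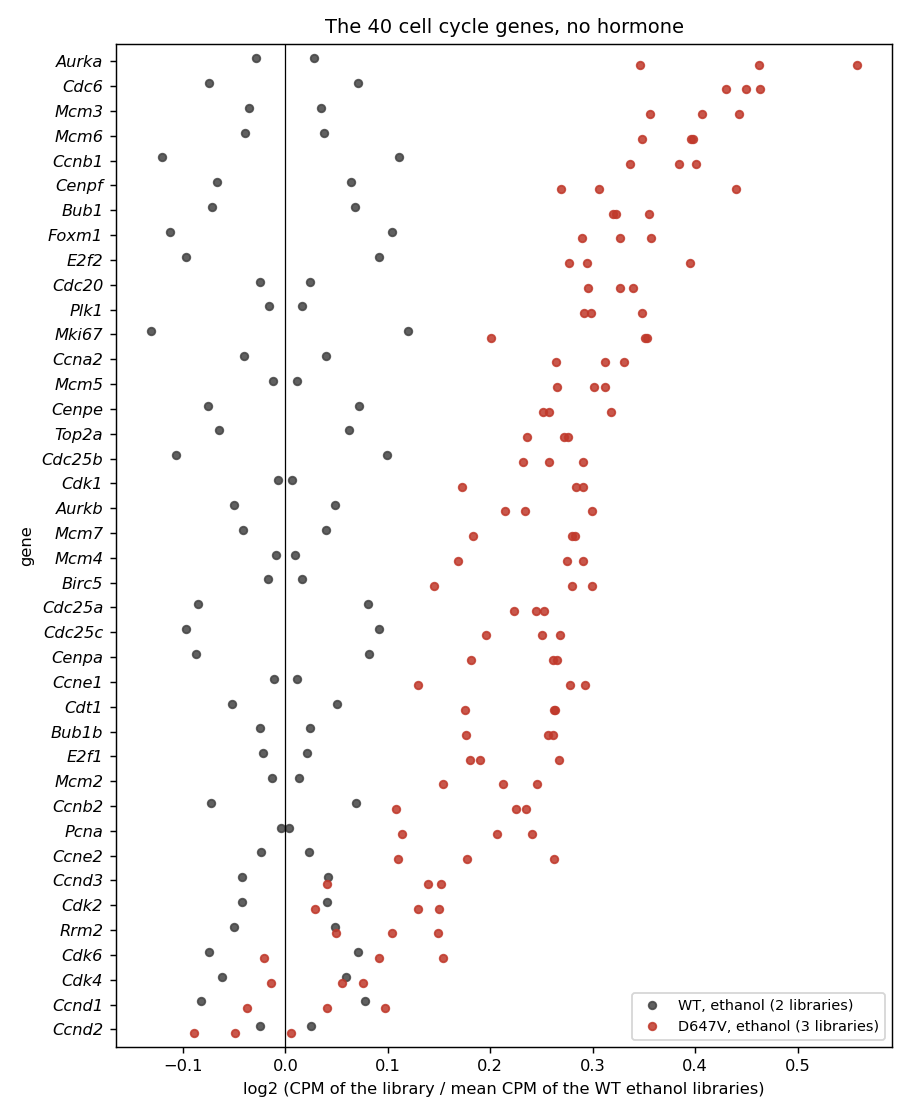
Log2 of the CPM in each library over the mean CPM of the WT EtOH libraries (x axis), for the 40 cell cycle genes (y axis), with 1 point per EtOH library of WT (2, dark) and D647V (3, red). The D647V points lie to the right of both WT points for most genes, including Aurka and Cdc6, while they mix with WT for the cyclin D genes at the bottom.

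The promoters of Cdc6 and Mcm6 are shown because both genes carry the letters TTTCGCGC, TTTGGCGC or TTTCCCGC, a motif of the E2F factors that drive S phase genes. The 250 bases before the start site are given in the direction of the gene (RefSeq, GRCm38.p6), with matches on either strand in capitals. Cdc6 is at chr11:98907901-98908150 (plus strand) and Mcm6 at chr1:128359706-128359955 (minus strand).
Cdc6: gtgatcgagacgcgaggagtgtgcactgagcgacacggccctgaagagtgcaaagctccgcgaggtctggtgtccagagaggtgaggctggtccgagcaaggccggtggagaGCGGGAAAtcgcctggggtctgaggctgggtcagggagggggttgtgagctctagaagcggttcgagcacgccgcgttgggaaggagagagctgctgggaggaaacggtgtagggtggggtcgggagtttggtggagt
Mcm6: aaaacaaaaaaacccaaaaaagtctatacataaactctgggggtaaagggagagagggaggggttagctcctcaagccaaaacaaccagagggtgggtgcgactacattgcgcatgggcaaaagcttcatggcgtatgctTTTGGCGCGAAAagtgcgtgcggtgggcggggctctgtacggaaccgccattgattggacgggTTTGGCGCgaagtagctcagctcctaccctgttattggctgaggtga
The match of Cdc6 begins at -138 from the start site. Those of Mcm6 begin at -110, -106 and -47, of which the first and second overlap on opposite strands. In windows from 250 bases before to 50 after the start site, 7 of the 23 called genes with a RefSeq promoter (30.4%; 28 were called) and 10 of the 32 tested list members with one (31.2%) held the motif on either strand. It was in 421 of 10516 tested genes with a promoter (4%) and in 606 of all 32851 promoters (1.84%). These letters describe the windows and do not show binding.

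Genes of amino acid supply were read beside those of the integrated stress response, the programme that the factor ATF4 runs when amino acids are short or proteins misfold. Of 30 genes of amino acid and glutamine metabolism 16 were called higher (53.3%) and 1 lower (3.33%), with a median of 0.19. Over all genes 4.58% were called higher and 2.78% lower. Phgdh, the first enzyme of serine synthesis, stood at 345.6 and 341.7 CPM in WT and at 432.7, 479.6 and 471.5 CPM in D647V (0.42 ± 0.0544, edgeR adjusted p = 0.000143). Shmt1 and Shmt2, which pass the serine carbon to folate, rose by 0.43 in both cases. The exception was Ass1, the argininosuccinate synthase of arginine synthesis, which fell from 88.8 and 80.3 CPM to 42.8, 45.7 and 47.4 CPM (-0.90 ± 0.0766, adjusted p = 3.38e-06). Of 22 genes of the integrated stress response 11 were called higher and 0 lower by edgeR and by DESeq2, with a median of 0.18. At an unadjusted p under 0.05 the counts were 16 and 1. Chac1, a glutathione-degrading enzyme, stood at 45.02 and 38.8 CPM in WT and at 57.7, 59.2 and 61.7 CPM in D647V (0.51 ± 0.081, adjusted p = 0.000944). Asns, asparagine synthetase, rose from 586.6 and 590.3 CPM to 644.8, 682.6 and 682.6 CPM (0.19, adjusted p = 0.0298), and Atf4 itself differed by 0.18 (adjusted p = 0.0469). The transfer RNA synthetases Cars, Eprs, Aars, Lars, Tars, Iars and Wars made up most of the rest, at 0.16 to 0.25.

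These counts moved with single libraries. For amino acid metabolism the number called higher was 5 without WT replicate 1, 7 without D647V replicate 2 and 9 without D647V replicate 3. For the integrated stress response it was 2 without WT replicate 1, 4 without WT replicate 2, 2 without D647V replicate 2 and 3 without D647V replicate 3. It was also 6 of the list with structural, mitochondrial and histone genes left out of the scaling or with no low-count filter. A fit on the 5 libraries alone called 9 genes of amino acid metabolism and 4 of the integrated stress response higher. In either list 0 were called higher by at least 1.5-fold.

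The promoters of Asns and Chac1 are shown because each holds the letters TGATGNAA, a motif of ATF4 and its partners known as the amino acid response element. They are given as above, Asns at chr6:7693210-7693459 (minus strand) and Chac1 at chr2:119350992-119351241 (plus strand), in GRCm38.p6.
Asns: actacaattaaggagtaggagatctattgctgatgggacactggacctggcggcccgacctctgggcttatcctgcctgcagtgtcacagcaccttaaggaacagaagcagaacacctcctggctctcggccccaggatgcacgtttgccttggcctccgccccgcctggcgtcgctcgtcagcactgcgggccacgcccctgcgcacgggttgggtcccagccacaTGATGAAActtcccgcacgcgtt
Chac1: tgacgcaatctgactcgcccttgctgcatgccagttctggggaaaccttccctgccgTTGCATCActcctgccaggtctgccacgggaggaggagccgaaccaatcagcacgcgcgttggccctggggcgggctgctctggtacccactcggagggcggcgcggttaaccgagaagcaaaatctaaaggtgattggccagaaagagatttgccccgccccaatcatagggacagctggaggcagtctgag
The match begins at -23 in Asns and, on the opposite strand, at -193 in Chac1. Of the genes of the integrated stress response called higher, 6 of the 8 with a RefSeq promoter held the motif on either strand (75%; 11 were called), as did 9 of 17 tested members with one (52.9%). Of the called genes of amino acid metabolism 2 of 14 held it (14.3%; 16 were called), and 5 of 23 tested members (21.7%). It was in 300 of 10516 tested genes with a promoter (2.85%) and in 1304 of 32851 promoters (3.97%).

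Cholesterol synthesis genes were examined next. Of 25 tested, 10 were called higher (40%) and 0 lower by edgeR, 17 and 0 at an unadjusted p under 0.05. Over all genes 4.58% were called higher and 2.78% lower. DESeq2 called 11 and 0. A fit on the 5 libraries alone called 5 higher, and 0 were called higher by at least 1.5-fold. All 25 had a difference above 0, with a median of 0.18. Hmgcs1, the synthase that precedes the rate-limiting step, stood at 1120 and 1130 CPM in WT and at 1376, 1463 and 1435 CPM in D647V (0.34, adjusted p = 0.000969). Nsdhl, a later enzyme of the pathway, differed by 0.31. The count was 2 without WT replicate 1, and 4 without WT replicate 2, D647V replicate 2 or D647V replicate 3. Among 30 genes of fatty acid synthesis and storage 4 were higher and 4 lower. Elovl6, a fatty acid elongase, rose from 147.4 and 159.6 CPM to 222.1, 224.8 and 225.2 CPM (0.55), whereas the lipid carrier Fabp4 (-0.85) and Plin4 (-0.59) fell. Of 33 antioxidant genes under the factor NRF2 8 were higher and 1 (Gstm1) lower, a count of 1 without WT replicate 1. Gsta4, a glutathione transferase, differed by 0.43. Of 20 genes of the unfolded protein response 4 were higher (Hyou1, Calr, Hspa5 and Sdf2l1, at 0.22 to 0.33) and 0 lower by edgeR; the number lower was also 0 by DESeq2 and at an unadjusted p under 0.05. Only 1 was higher without WT replicate 1, WT replicate 2, D647V replicate 2 or D647V replicate 3.

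An active receptor is known to restrain many inflammatory genes. Of 23 genes of an inflammatory and NF-kB list, 8 were called higher (34.8%, against 4.58% of all genes). Only 1 (Relb) was lower, and the list had a median of 0.19. The list also holds inhibitors of NF-kB, and 1 of these, Nfkbia, is on the textbook list of induced genes above as well. Tnfaip3, the NF-kB inhibitor A20, stood at 13.8 and 13.1 CPM in WT and at 21.5, 19.9 and 22.7 CPM in D647V (0.67 ± 0.0775, edgeR adjusted p = 5.49e-05). Cxcl12 and Il33, given above, Ccl2 (0.29), Ccl7 (0.33), Ptgs2, the prostaglandin synthase (0.23), Nfkb1 (0.17) and Nfkbia (0.28) made up the rest. The count was 4 without WT replicate 2 or D647V replicate 2 and 3 without D647V replicate 3.

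Immediate early genes, which respond first to growth signals, and genes of TGF-beta signalling were read next. Of 25 immediate early and AP-1 genes 6 were called lower (24%) and 1 (Myc) higher (4%), with a median of -0.12. Over all genes 2.78% were called lower and 4.58% higher. Ccn1, a secreted matrix protein, stood at 286.2 and 316.1 CPM in WT and at 198.4, 205.7 and 221.9 CPM in D647V (-0.53 ± 0.0804, edgeR adjusted p = 0.000604). Srf, the serum response factor, differed by -0.32, Egr3 by -1.10, Fosb by -0.95, Maff by -0.38 and Jund by -0.39. Without WT replicate 1 the number lower was 2, and without D647V replicate 1 or D647V replicate 2 it was 3. Of 25 genes of TGF-beta and BMP signalling 6 were lower and 1, the receptor Tgfbr2 (0.21), higher, with a median of -0.14. The ligand Tgfb2 differed by -0.45, the target Id1 by -0.36, the antagonist Fst by -0.34, the activin chain Inhba by -0.20 and the inhibitory Smad6 by -0.32. The number lower was 2 or 3 with any 1 of the 5 libraries left out. The kinase feedback genes Dusp4 (-0.49), Etv4 (-0.32) and Etv5 (-0.40) were the 3 called of 23 in their list.

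Other nuclear receptors were examined as relatives of GR. Of 25 tested, 4 were called lower (16%, against 2.78% of all genes) and 0 higher by edgeR. At an unadjusted p under 0.05 the counts were 5 and 0, and DESeq2 called 0 higher. Pparg, the receptor that drives fat cell formation (chr6:115360951-115490399 in mm10, plus strand), stood at 18.4 and 20.7 CPM in WT and at 9.93, 10.8 and 9.10 CPM in D647V (-0.97 ± 0.105, adjusted p = 2.97e-05). The vitamin D receptor Vdr fell from 30.8 and 32.3 CPM to 22.4, 20.7 and 20.3 CPM (-0.58, adjusted p = 0.000305). In both, no D647V library reached the WT range, and the groups did not overlap for 36.6% of all genes. The thyroid hormone receptor Thra (-0.30) and the orphan receptor Nr2c1 (-0.29, adjusted p = 0.0495) were the other two. The number lower was 2 without WT replicate 1 or D647V replicate 1 and 3 without any other library. Nr2c1 lost its call with any 1 of the 5 libraries left out, and Thra without WT replicate 1 or D647V replicate 1. The clock output factors Dbp (-0.56) and Tef (-0.21) and the clock repressor Per2 (-0.41) were lower, 3 of 17 clock genes.

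In the matrix, Lox, the enzyme that crosslinks collagen, rose from 599.0 and 633.5 CPM to 858.5, 891.7 and 835.9 CPM (0.48, edgeR adjusted p = 9.96e-06). Its relatives Loxl1 (-0.41) and Loxl3 (-0.49) were lower and Loxl4 (0.26) higher. The list of 38 matrix genes had 3 higher (7.89%) and 6 lower (15.8%), against 4.58% and 2.78% of all genes. Of 25 collagens 3 were higher, Col1a2 (0.42), Col5a2 (0.33) and Col9a3 (0.99). The 4 lower were Col6a1 (-0.48), Col6a2 (-0.57), Col8a1 (-0.28) and Col4a6 (-0.26). Col1a2 lost its call with a replicate block and without D647V replicate 1, 2 or 3.

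**Figure D3:**
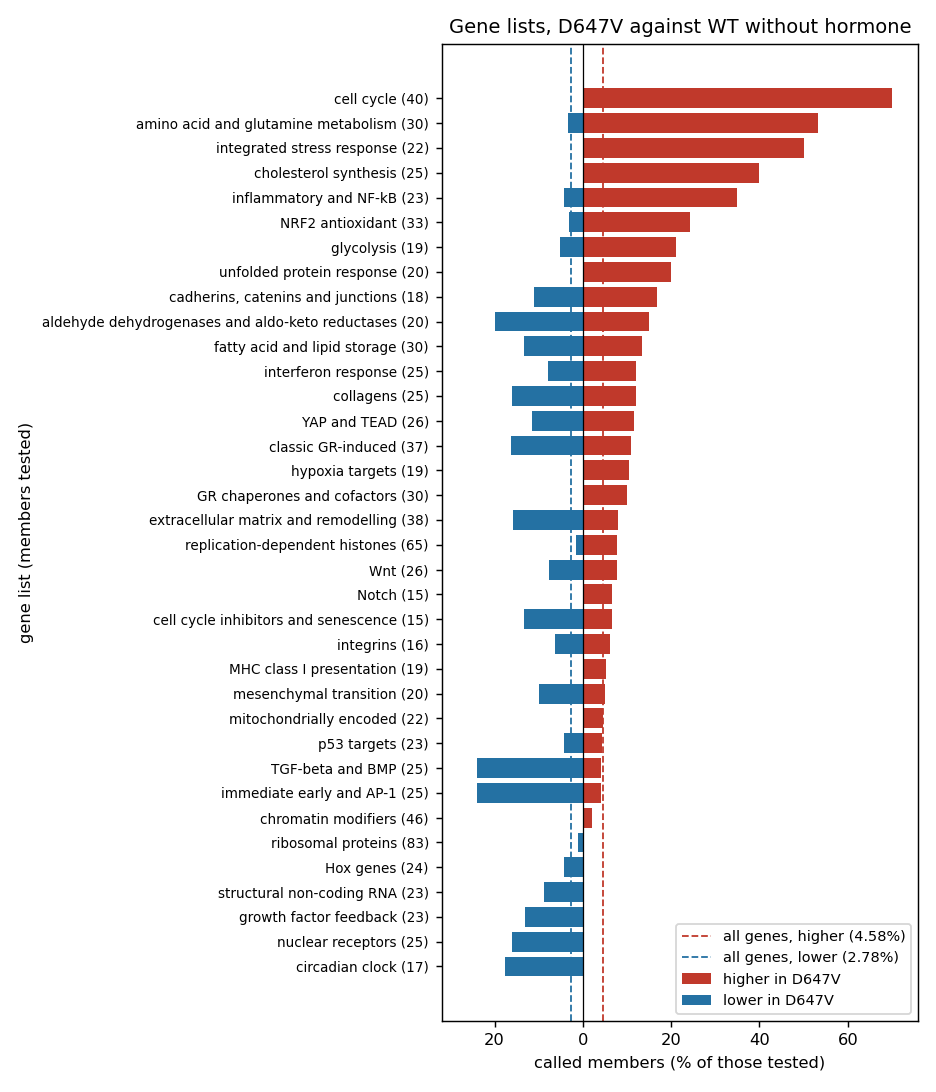
Share of tested members (x axis, %) called higher (red, right of 0) and lower (blue, left of 0) in D647V without hormone, by gene list of at least 15 tested members (y axis, members tested in brackets), with dashed lines at the shares over all genes, 4.58% higher and 2.78% lower. Among the lists drawn, the cell cycle list reaches farthest to the right, with 28 of 40 called higher, and the immediate early and TGF-beta lists farthest to the left, with 6 of 25 called lower in each.

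Markers of other cell types were read beside these results. The summed level of basal epithelial markers was 31.1 and 31.7 CPM in WT and 25.4 to 27.6 CPM in D647V, with Krt14 and Trp63 called lower of 8 tested. For adipocyte markers it was 25.8 and 27.0 CPM against 15.2 to 17.4 CPM, with Pparg and Fabp4 called of 5, and for endothelial markers 9.54 and 9.58 CPM against 4.69 to 5.798 CPM, with Cdh5 called of 6. Pparg and Cdh5, given above, made up most of their sums in WT. Fibroblast markers summed to 2114 and 2261 CPM against 2762 to 2874 CPM, with Col1a2 called of 7. The call of Col1a2 was lost with a replicate block and without D647V replicate 1, 2 or 3. The members did not all move with their sums: 2 of 8 basal, 2 of 5 adipocyte, 2 of 6 endothelial and 4 of 7 fibroblast markers had a difference above 0. Immune markers were between 15.6 and 17.6 CPM in all 5 libraries with 0 of 5 called by edgeR or DESeq2 and 2 at an unadjusted p under 0.05, and luminal markers between 456.8 and 493.0 CPM with Csn3 (0.41) called of 9. In RNA from a bulk culture, fewer cells of a type and less RNA per cell cannot be told apart, and the part of other cells in the results was not tested.

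Genes called higher were unevenly spread over the genome. Chromosome 1 held 6.92% of tested genes and 21.9% of those called higher. Of its 1214 tested genes, 176 were higher and 17 lower (15.9% called), against 6.72% called elsewhere. For 590 protein-coding genes on it with at least 1 log2 CPM the median log2 difference was 0.14, and 84.2% lay above 0, against a median of 0.02 over 9716 such genes elsewhere. The medians of the other chromosomes lay between -0.0016 and 0.0349. The shift ran along the whole chromosome: in all 20 windows of 10 Mb, with 7 to 62 genes each, the median was above 0, from 0.02 to 0.21, and it was above 0 in all 20 with Dex. In 185 windows of at least 20 genes on other chromosomes it ran from -0.06 to 0.11, and 3 of these exceeded 0.1. Per library, the chromosome 1 median less that of the other chromosomes, measured against the mean of both WT EtOH libraries, was -0.01 to 0.01 in the 4 WT libraries of set 2. It was 0.11 to 0.15 in all 12 libraries of D647V and D647V-Tetra. The values of the WT EtOH libraries mirror each other by construction, and all other libraries share that reference. Few of the chromosome 1 genes called higher moved far, since 12 of the 176 reached 1.5-fold. The number higher was 57 without WT replicate 1, 88 without D647V replicate 2, 105 without WT replicate 2 and 110 without D647V replicate 3. Of the lists above, 3 of the 28 called cell cycle genes and 3 of the 16 of amino acid metabolism lie there, as do Mcm3, Mcm6, Glul and Mstn. Of the 4 textbook targets of GR called higher, 2 lie there, and they were the only 2 members of that list tested on it.

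**Figure D4:**
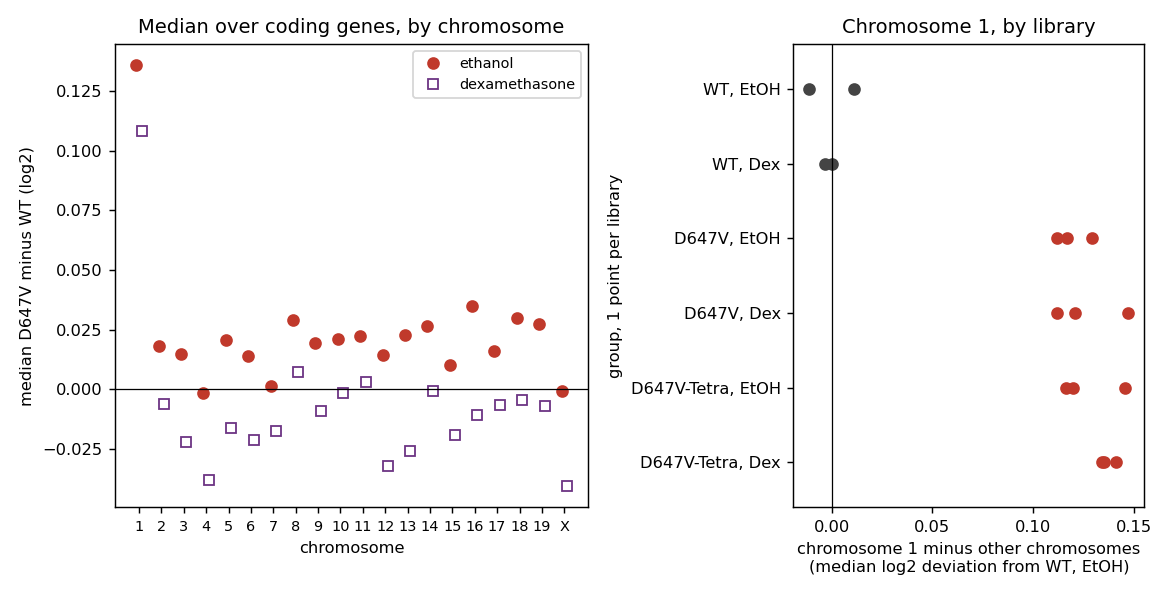
Left, median log2 difference D647V minus WT over protein-coding genes (y axis) by chromosome (x axis), without hormone (red) and with Dex (open squares). Right, median log2 deviation from WT EtOH of chromosome 1 genes less that of other genes (x axis), 1 point per library of set 2. Chromosome 1 stands at 0.14 without hormone and 0.11 with Dex, and every D647V and D647V-Tetra library lies between 0.11 and 0.15, apart from all WT libraries. The WT EtOH points mirror each other by construction, and all other points share that WT reference.

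The same 2 lines were compared in separate libraries given Dex, which share no library with the comparison above. With Dex 719 genes were higher in D647V (4.1%) and 932 lower (5.32%). Of the 803 genes higher without hormone, 355 were also higher with Dex, which is 44.2% of the former and 49.4% of the latter, and 2 were lower. Of the 487 genes lower without hormone, 310 were also lower (63.7% and 33.3%), and 0 were higher by edgeR, also at an unadjusted p under 0.05. Of those at least 1.5-fold apart, 81 of 83 and 153 of 159 had the same sign with Dex. Tpsab1 differed by -2.75, Cdh5 by -2.10, Sfrp2 by -1.40, Clec1a by 1.46 and Ssu2 by 1.36. Of the 15 named genes 14 of the higher and 12 of the lower group were called in the same direction. The exceptions were S100a7a (-0.32, adjusted p = 0.333), Rny3 (-0.07, adjusted p = 0.924), Tmem119 (-0.47, adjusted p = 0.161) and Ssc5d (-0.31, adjusted p = 0.325). A test of whether the line difference itself changed with hormone called 33 of all genes (0.188%), 10 of the 1290 and 0 of the 30 named ones by edgeR, 5 of which had an unadjusted p under 0.05. Together 1651 genes were called with Dex, and 441, 1006, 943 and 887 without WT Dex replicates 2 and 1 and D647V Dex replicates 2 and 3. The 33 became 21 and 22 without WT Dex replicates 1 and 2, and 19 and 22 without D647V EtOH replicates 2 and 3.

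The lists were read again with Dex, and no test compared a list between the 2 states. The cell cycle list had 16 higher and 0 lower of 40 with Dex by edgeR (26 and 0 at an unadjusted p under 0.05, median 0.17), amino acid metabolism 10 higher and 2 lower (0.15), and cholesterol synthesis 6 higher and 0 lower (9 and 0 unadjusted, 0.10). Textbook targets of GR had 0 higher and 28 lower of 37 with Dex (1 and 32 at an unadjusted p under 0.05, median -0.55), against 4 and 6 without. Glul was higher in D647V by 0.31 without hormone and lower by 0.23 with Dex (difference of differences adjusted p = 0.000542), where WT stood at 176.0 and 171.0 CPM and D647V at 154.4, 143.9 and 146.2 CPM. Sgk1 stood at 128.4 and 138.3 CPM in WT and at 116.9, 122.1 and 121.4 CPM in D647V without hormone. With Dex it stood at 850.8 and 821.1 CPM in WT and at 411.5, 418.5 and 394.5 CPM in D647V, a difference of -1.03, so the lines moved apart (adjusted p = 5.93e-06).

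**Figure D5:**
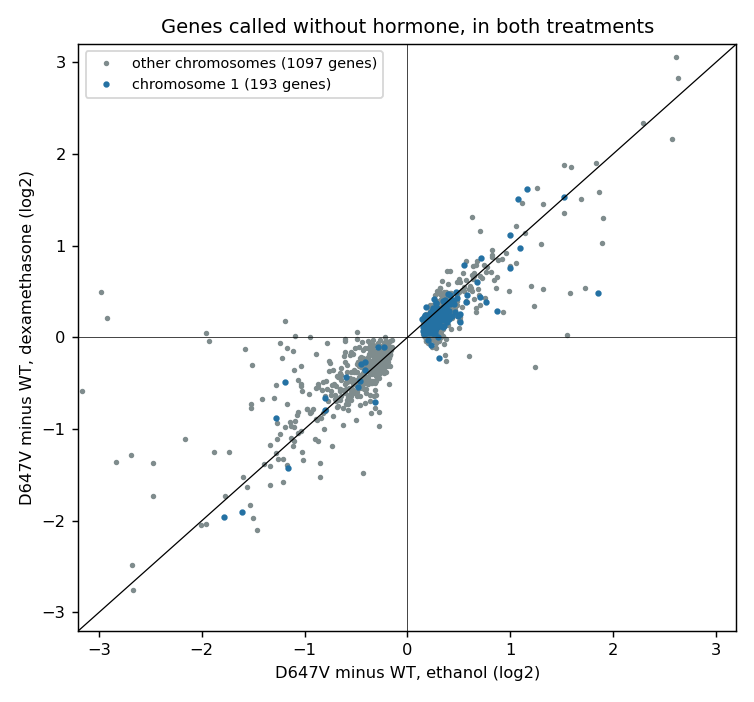
Log2 difference D647V minus WT without hormone (x axis) against that with Dex (y axis) for the 1290 genes called without hormone, 1 point per gene, with genes of chromosome 1 (193) in blue and the line of equal differences. Most points fall in the lower left and upper right quadrants, Tpsab1 at -2.67 and -2.75; the 14 genes beyond 3.2 on an axis are not drawn.

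D647V-Tetra, whose added name the labels do not explain, was compared without hormone. Against D647V 795 genes were called (4.53%), of which 89 were among the 1290 and 2 among the 30 named genes. The D647V libraries are the same ones that picked the 1290 and the 30, so these overlaps are not independent. The 2 named genes were Tpsab1, at 2.51, 2.42 and 2.96 CPM in D647V-Tetra (-0.47, adjusted p = 0.0254), and Ldb3, at 1.38, 2.08 and 1.37 CPM (-0.70, adjusted p = 0.0381). Sfrp2 stood at 26.8, 33.5 and 35.6 CPM, Clec1a at 10.3, 9.57 and 9.74 CPM and Cdc6 at 77.8, 80.8 and 79.2 CPM, all on the D647V side of the WT levels. Mki67 was lower in D647V-Tetra than in D647V by -0.35 (adjusted p = 0.00566), and Tsc22d3 was higher by 0.28 (adjusted p = 0.00915). Against WT 3277 genes were called (18.7%), a comparison that shares the WT libraries. The 795 became 188 and 215 without D647V replicates 1 and 2, and 256 and 330 without D647V-Tetra replicates 1 and 3; the 3277 became 1498 without WT replicate 2.

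Lines of set 1 were set beside these values through the WT of their own set, with no library in common. Against that WT, Y551A without hormone had 6855 of 16140 genes called (42.5%) and Y551A-Dim 3757 (23.3%). By direction, 18.9% of all genes were higher and 23.5% lower in Y551A, and 10% were higher and 13.3% lower in Y551A-Dim. Of 799 genes higher in D647V and tested there, 111 were also higher in Y551A (13.9%, and 3.65% of those higher in Y551A) and 529 were lower. Of 483 genes lower in D647V, 59 were also lower in Y551A (12.2% and 1.55%) and 295 were higher. Lists with most of their calls higher in D647V had most of them lower in Y551A, with 32 of 40 cell cycle genes lower and 1 higher, 25 of 30 of amino acid metabolism lower and 22 of 25 of cholesterol synthesis lower. Cdc6 stood at 40.5, 42.9 and 40.3 CPM in Y551A against 90.5, 88.9 and 83.7 CPM in its WT. Tpsab1 stood at 41.0, 40.4 and 45.1 CPM in Y551A, higher than its WT by 4.39. In a joint fit, the D647V difference and the Y551A difference were called different for 5651 of 17190 genes (32.9%) and for 24 of the 30 named genes. The named genes were picked for their D647V difference, so their larger share follows from the choice. For Y551A-Dim, 170 of the 799 were also higher (21.3%) and 169 lower, and 131 of the 483 also lower (27.1%) and 88 higher. Chromosome 1 stood above the other chromosomes in these lines too, at 0.15 against -0.05 in Y551A and 0.17 against -0.05 in Y551A-Dim.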

How the data were processed

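Total RNA-seq reads of 34 libraries were processed by the submitters. Per the file headers, the authors deposited raw counts of reads per gene name, made with featureCounts 2.0.3 from STAR alignments to mm10, over exons of GENCODE vM21, on the reverse strand and with both mates counted. Per the submitters' processing notes, bcl2fastq 2.17 and cutadapt came before. Reads that fit several genes or places were not counted, so close paralogs are undercounted. The labels describe 2 batches with different kits without assigning libraries to them, and a Drosophila spike-in that was not used here.

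From these counts, genes were kept with filterByExpr (minimum count 10) and scaled by TMM, and edgeR 4.0.16 (limma 3.58.1, R 4.3.3) fitted a mean per group over all 16 libraries of set 2, giving 17535 genes, 10 residual degrees of freedom and a biological coefficient of variation of 8.62%. Set 1 was fitted apart, with 18 libraries and 16140 genes. The contrast was D647V minus WT without hormone, p-values were adjusted over all genes and called under 0.05, and the standard error is the log2 difference over the root of F. DESeq2 1.42.0 was an alternative. No replicate pair differed by as little as sampling noise, and every library was kept. The rule for named genes took the 15 called genes with the greatest difference in each direction above 1 log2 CPM on average. It required that their CPM did not overlap between the groups, and it passed over predicted, clone-named and pseudogene names. It also took a fixed set of GR genes and up to 4 called members of each list. Other genes named, such as further called list members, were chosen after their values were seen. The members and lists were chosen with earlier results of these data known. The comparison with set 1 lines, the chromosome analysis and the base composition correction were added after seeing the data. Promoters came from RefSeq (GRCm38.p6), and not every gene had one. Values of a few named genes are not reported here. The fit was tested on simulated data.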

Additional observations from a re-analysis of the deposited data

Results flagged for a closer look

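Among all named genes, which include the fixed GR genes and list members, the line difference changed with hormone for 12 by an interaction test in edgeR. Of these, 11 are given here (adjusted p from 5.93e-06 to 0.0475). The same test called 33 of all genes (0.188%) and 0 of the 30 genes with the greatest differences. Known targets of GR were put among the named genes on purpose, so the 12 cannot be weighed against the share over all genes. The log2 difference with Dex less that without hormone was -0.69 for Tsc22d3, -0.69 for Fkbp5, -0.88 for Sgk1, -0.48 for Ccn2, -0.87 for Mt1, -0.53 for Glul and -0.80 for Adm. It was -0.45 for Aldh1a1, -0.45 for Aldh1a7, -0.56 for Tead4 and 0.47 for Dusp4, which Dex lowers in WT. Of these 11, Glul, Adm and Tead4 were called higher in D647V without hormone.

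The D647V difference and the Y551A difference were each taken against the WT of its own set and without hormone. The joint edgeR fit called them different for 24 of the 30 genes with the greatest differences, against 32.9% of all genes. The 30 genes were picked for their D647V difference, which is part of this contrast. A share above that of all genes thus follows from the choice. Of these, 22 are given here (adjusted p from 1.49e-18 to 0.0198). Of the genes higher in D647V, the D647V difference less the Y551A difference was 2.06 for Ssu2, 1.14 for Clec1a, 3.23 for Hapln1, 3.06 for S100a7a, 2.62 for Itgb2 and 2.199 for Mstn. It was 1.31 for Pcdh9, 2.03 for Cxcl12, 0.94 for Fyb2, 2.29 for Il33 and 0.70 for Siglecg. Of the genes lower in D647V, it was -7.06 for Tpsab1, -1.29 for Sfrp2, -2.66 for Ldb3, -1.59 for Mustn1, -3.67 for Krt14 and -3.43 for Acsbg1. It was -2.75 for Trabd2b, -0.81 for Cbr2, -2.03 for Tmem119, -2.42 for Ssc5d and -2.50 for Igfbp7.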

How the results depend on the processing

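Of the 1290 genes called, 803 higher and 487 lower, leaving out 1 library left 364 to 1057 (212 to 668 higher, 152 to 389 lower). A fit on the 5 libraries alone called 761 (457 higher, 304 lower), and chromosome 1 then had 105 higher. The same kind of fit gave 235 for D647V-Tetra against D647V, 1876 for D647V-Tetra against WT and 864 for WT with Dex against EtOH in set 1. Base composition and length offsets gave 933 lower, and no filter gave 27 lower on chromosome 1. Counting only differences of at least 1.5-fold left 242 (83 higher, 159 lower), 2 higher and 7 lower among genes that Dex raises, and 12 higher and 9 lower on chromosome 1. DESeq2 gave 64 genes with a changed line difference and 1444 for D647V-Tetra against D647V. A replicate block gave 865 genes (531 higher), 1062 with Dex and 502 for D647V-Tetra against D647V. Deviations from the group mean of WT and D647V replicates 1 correlated at -0.24 and of replicates 2 at -0.15, other pairs at -0.13 to 0.24. With 2 WT libraries the deviations of 1 mirror those of the other. These values therefore cannot decide whether the replicate numbers pair the samples. The cause of these changes was not tested.

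With 1 library left out, genes that Dex raises gave 3 to 5 higher and 8 to 19 lower, chromosome 1 57 to 145 higher and 9 to 16 lower, the comparison with Dex 441 to 1482, the changed line difference 19 to 35, D647V-Tetra against D647V 188 to 1131 and against WT 1498 to 3598, WT with Dex against EtOH in set 1 411 to 486, and the cell cycle median 0.20 to 0.30.

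Ccn2, 0.02 in the main fit, was -0.0089 with base composition offsets and -0.0116 to 0.0613 with 1 library left out. The median of genes that Dex raises, -0.04, was -0.1172 to 0.0336. With 2 WT libraries, 1 library decides much of the spread.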

Other observations

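Among further lists, replication-dependent histones had 5 genes called higher (7.69%) and 1 lower (1.54%) of 65, against 4.58% and 2.78% of all genes. The number higher was 24 with base composition and length offsets and 14 with no low-count filter. It was 0 without WT replicate 2, 1 without WT replicate 1, D647V replicate 2 or D647V replicate 3, and 7 without D647V replicate 1, and the number lower was 0 without any 1 of the 5. Ribosomal protein genes had 1 lower, Rpl5, of 83, with a median of -0.12, and 16 lower with base composition and length offsets. Structural non-coding RNAs had 2 lower, Rpph1 and Scarna2, of 23 with a median of -0.45, beside the lower share of small structural RNA in the D647V libraries. Glycolysis genes had 4 higher, Pfkl, Pgam1, Pfkp and Ldha, and 1 lower, Pdk1, of 19. The number higher was 0 without WT replicate 1, WT replicate 2, D647V replicate 2 or D647V replicate 3, and 3 without D647V replicate 1, and the number lower was 0 without WT replicate 2 or D647V replicate 3.

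Aldehyde dehydrogenases and aldo-keto reductases split by gene. Akr1c14, a hydroxysteroid dehydrogenase, stood at 0.206 and 0.168 CPM in WT and at 1.21, 0.775 and 0.788 CPM in D647V (2.29, edgeR adjusted p = 0.000504), whereas Aldh1a1, Aldh1a7, Aldh2 and Aldh6a1 were lower.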
